A study of Mus musculus with 18 samples.

Results

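Wee1 and 9 other regulators of entry into S phase and mitosis (Cdkn1a, Cdkn1b, Ccnd1, Ccnd2, Myc, Cdk4, Trp53, Mdm2 and Gadd45a) were followed through the day in mouse distal colon. They were taken as genes that link the circadian clock to the cell cycle, by their exact symbol in the platform annotation. Of these 10 genes, 9 had a probe set under that symbol alone, with 24 probe sets in all, among 18193 genes and 34945 probe sets with 1 symbol. Trp53 was not analysed here. Colon tissue was taken from mice kept for 2 weeks in 12 h of light and 12 h of dark (lights on at 7 and off at 19 on the 24 h clock) with free access to food. The 6 collection times were 8am, 12pm and 4pm in the light and 8pm, 12am and 4am in the dark, that is 1, 5, 9, 13, 17 and 21 h after lights on. Each time has 3 Affymetrix mouse genome arrays, lettered a to c. The segment lay about 0.5 cm above the anus and was used whole, so fewer cells of a type and less RNA per cell cannot be told apart. The labels used here give no strain, sex or age and do not say whether arrays stand for separate mice or for pools, so p-values measure the spread between these arrays.

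The gate from G1 into S phase is opened by D-type cyclins (Ccnd1, Ccnd2) bound to the kinase Cdk4, which phosphorylate the retinoblastoma protein, and it is held shut by the inhibitors p21 (Cdkn1a) and p27 (Cdkn1b). The gate from G2 into mitosis is held by the kinase Wee1, which phosphorylates and inactivates Cdk1, and p53 acts on both gates through targets such as Cdkn1a, Gadd45a and Mdm2. In mouse liver Wee1 is a direct target of CLOCK and BMAL1, and in the colon the cells that divide are those of the crypt epithelium.

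All 24 probe sets had a mean of at least 7.10 on the log2(signal + 16) scale and were tested. Each gene is represented by its probe set of highest mean. No gene of the group passed the test for a 24 h cosine curve (0 of 9, limma, adjusted p under 0.05), where 0.0389% of the 12870 genes tested passed. At an unadjusted p under 0.05 these were 2 of 9, Wee1 and Cdk4, against 3.95% of all genes. In the test for any difference between the 6 times, 2 of 9 passed, Wee1 and Cdkn1b, where 17% of all genes passed, so the share in the group is read against a high background. The median range between the highest and lowest time mean was 0.97 on the log2 scale in the group and 0.90 over all genes.

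Arrays differed in RNA quality. For the Gapdh control, signal at the 3′ end over signal at the 5′ end was 0.746 to 1.12 in 14 arrays. The other 4 arrays had higher ratios, of 36.0 (4am a), 34.3 (4pm b), 18.2 (4am b) and 2.33 (4pm c). Every epithelial marker listed (12 of 12) was above the level filter, and their summed signal ran from 114506 to 192658. Exocrine pancreas genes were also above it (7 of 7 with a probe set), with sums from 18280 to 163844, the highest in 12am b. Smooth muscle genes (8 of 8) summed to 20683 in 4am a and to between 35377 and 81977 in the other arrays, with a median of 57141 over all 18. The 4am a array also had the highest sums of adipocyte genes (9718, median 2438), anal squamous genes (2971, median 1123) and B and plasma cell genes (17890, median 10134). The part of these cells in the values of 4am a was not tested. Of the T cell markers with a probe set, Cd2, Cd3d, Cd3e and Cd3g were below the filter.

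Wee1 was lowest in the middle of the light phase and highest in the middle of the dark phase. Probe set 1416773_at gave signals of 1004, 1334 and 1011 in the 8am arrays, 697, 674 and 866 in the 12pm arrays and 772, 1005 and 752 in the 4pm arrays. It gave 1095, 1549 and 1457 in the 8pm arrays, 1239, 2038 and 1734 in the 12am arrays and 919, 1758 and 929 in the 4am arrays. All 9 light arrays were below the median of the dark arrays, and every 12pm array was below every 12am array. The 8am and 8pm arrays overlapped, as did those of 4pm and 4am, where 4am b alone was high.

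The time means of Wee1 were 10.13 ± 0.23, 9.56 ± 0.19 and 9.73 ± 0.23 in the light and 10.42 ± 0.26, 10.69 ± 0.36 and 10.18 ± 0.53 in the dark (log2, SD, n = 3). From highest to lowest the order was 12am, 8pm, 4am, 8am, 4pm and 12pm. The arrays of neighbours in this order overlapped at every step, and the only step above the pooled SD of 0.32 was that from 8am to 4pm, at 0.40. The 6 times differed in the limma test (range 1.13, adjusted p = 0.0434).

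The fitted 24 h curve of Wee1 had an amplitude of 0.50 ± 0.12 (SE) on the log2 scale, which is a peak 2.00 times the trough, and peaked 17.4 h after lights on. Its unadjusted limma p was 0.00157, rank 30 of 12870 genes, and the adjusted p was 0.672. Light minus dark was -0.62 ± 0.15 (limma, unadjusted p = 0.000909, rank 21, adjusted p = 0.550). The contrast of 12pm minus 12am was -1.13 ± 0.27 (rank 16, limma adjusted p = 0.440). Wee1 thus stood near the top of these rankings without passing the threshold over all genes. In the test of any difference, which it passed, its rank was 1760 of 12870. The contrast of 12pm minus 12am of Wee1 stayed at -1.13 without the 3 arrays of highest Gapdh ratio. It also did without all 4 of ratio above 2 (chosen after the data had been seen). None of these is a 12pm or 12am array, so the arrays of this contrast were the same and the spread shared by all times changed.

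**Figure D1:**
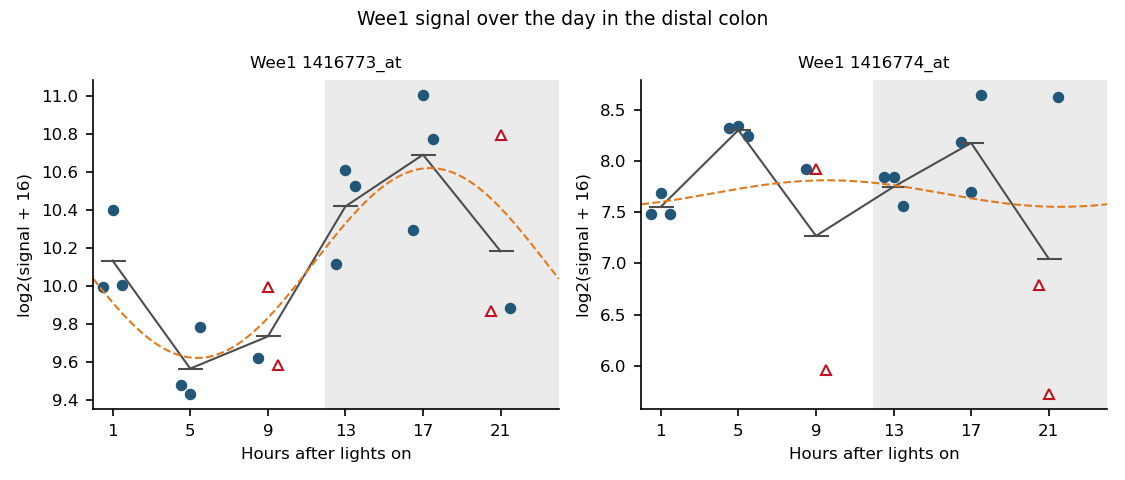
Signal of the 2 Wee1 probe sets as log2(signal + 16) against hours after lights on, with 1 mark per array, bars for the means of 3 arrays, a dashed 24 h cosine fit, grey for darkness and open triangles for the 4 arrays of Gapdh ratio above 2. The left probe set is lowest at 5 h and highest at 17 h, whereas the right one is high at both of these times.

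The call on Wee1 was not stable. Its limma adjusted p for any difference was above 0.05 when either of 4pm a and 4pm c, either of 12am b and 12am c, or any array of 8am, 12pm or 8pm was left out (13 of 18 cases, 0.0559 to 0.0938). In these 13 cases 6.15% to 17.3% of all genes were called, and 9.76% to 53.9% in the other 5, against 17% with all arrays. The adjusted p of Wee1 thus also follows how many other genes pass. Without 12am b, the array with the highest Wee1 signal and the highest sum of pancreatic genes, the limma adjusted p of Wee1 was 0.0938. Summed pancreatic signals were 26896 to 163844 at 12am and 26505 to 43644 at 12pm. The part of pancreatic RNA in the Wee1 level was not tested.

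The other Wee1 probe set, 1416774_at, did not follow the same course. In the light the 8am arrays gave signals of 163, 190 and 163, the 12pm arrays 304, 308 and 286 and the 4pm arrays 227, 226 and 46.3. In the dark the 8pm arrays gave 213, 214 and 172, the 12am arrays 275, 192 and 384 and the 4am arrays 94.6, 36.8 and 378. The 12pm arrays were all above those of 8am, 4pm and 8pm, and the low values lay in 4pm c, 4am a and 4am b. Its amplitude was 0.13 ± 0.26 with a peak at 9.60 h, and light minus dark was 0.05 (limma adjusted p = 0.977 over 27022 probe sets). The mean of both probe sets gave light minus dark of -0.28 and a limma adjusted p of 0.138 for any difference, so the Wee1 result rests on 1416773_at.

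Beside the clock, the Wee1 curve lay between those of Per2 and Cry1, which encode repressors of CLOCK and BMAL1. The fitted peak was at 15.7 h for Per2 (amplitude 0.73 ± 0.18) and at 19.3 h for Cry1 (1.05 ± 0.16). Cry1 passed the cosine test (limma adjusted p = 0.0367), and Per2 did not (0.859). The other clock genes that passed this test, Dbp, Tef and Nr1d2, peaked earlier than Wee1, at 10.8, 11.5 and 10.3 h. Per3 peaked at 10.7 h and Nr1d1 earlier than that, so the Wee1 curve lay near only part of the clock genes. The genes whose log2 signals were most like those of Wee1 over the 18 arrays were Cep128 (Pearson r = 0.83), Tuba8 (0.81), Rbfox3 (0.80), Usp14 (0.77) and S1pr2 (0.76), the 5 highest of all genes tested. Without the 3 arrays of highest Gapdh ratio these were 0.83, 0.87, 0.83, 0.75 and 0.75 over 15 arrays. Such likeness across shared arrays is a description, since all genes share each array's RNA and scaling.

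Cdkn1b, which encodes the Cdk inhibitor p27, differed between the times and did not pass the 24 h test. Its 8am arrays gave signals of 1161, 1506 and 2317 (1434045_at) and its 8pm arrays 1629, 1790 and 1846. The 12pm arrays gave 1089, 735 and 878 and the 12am arrays 903, 1059 and 886. The 4pm arrays gave 887, 1049 and 966 and the 4am arrays 1786, 1800 and 1248. The 6 arrays of 8am and 8pm were all above the 6 arrays of 12pm and 12am, and every 4am array was above every 4pm array. Array medians were 161 to 184 in the 8am and 8pm arrays and 188 to 252 in those of 12pm and 12am. Epithelial marker sums were 164401 to 192658 at 8am and 8pm and 122268 to 164567 at 12pm and 12am. The share of all genes with such a split was not counted, and the part of scaling or tissue make-up in it was not tested.

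The mean level of Cdkn1b was 10.72 over 8am and 8pm, 9.87 over 12pm and 12am, and 10.29 over 4pm and 4am (log2). The test of any difference gave a limma adjusted p of 0.0224 with a range of 0.97, and it stayed under 0.05 with each array left out in turn (0.00208 to 0.0482). The 24 h amplitude was 0.24 ± 0.15 (limma adjusted p = 0.948) and 0.14 without the 3 arrays of highest Gapdh ratio. The contrast of 4pm minus 4am was -0.71 ± 0.24 (limma unadjusted p = 0.00939, adjusted p = 0.171). The largest step between neighbours in the order of the 6 levels was that from 4am to 4pm, at 0.71, where the arrays did not overlap. The other Cdkn1b probe set, 1419497_at, lay between 39.0 and 524 and was lowest in 4pm b, 4am a and 4am b. The mean of both probe sets had a limma adjusted p of 0.0641 for any difference, so this call too rests on 1 probe set.

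The genes most like Cdkn1b over the 18 arrays were Septin10 and Rhoa (Pearson r = 0.86 for each). Rhoa encodes a small GTPase of the actin cytoskeleton.

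RefSeq promoter entries (build GRCm38.p6, 250 bases before to 50 after a start) were found for 5 of the 9 genes: Cdkn1a, Cdkn1b, Cdk4, Mdm2 and Gadd45a. The windows were searched on both strands for the E-box CACGTG, bound by CLOCK and BMAL1 and by Myc and Max, for AGGTCA, the half-site of the REV-ERB and ROR receptors, and for the D-box TTATGTAA or TTACGTAA. Cdk4 was the gene with matches, namely 4 E-boxes at -172, -118, -98 and -11 from the start and 1 AGGTCA at -102 that overlaps the third E-box. Of 32851 promoters, 7.15% held an E-box, 16.3% an AGGTCA and 1.06% a D-box, and 8 (0.0244%) held 4 or more E-boxes. The Cdk4 window (chr10:127063285-127063584, plus strand) is shown because it carries these matches, in capitals. The Cdkn1b window (chr6:134920151-134920450, plus strand) is shown as that of the called gene with an entry, and held none of the 3 motifs. A match describes the letters and is no measurement of binding.
Cdk4 promoter: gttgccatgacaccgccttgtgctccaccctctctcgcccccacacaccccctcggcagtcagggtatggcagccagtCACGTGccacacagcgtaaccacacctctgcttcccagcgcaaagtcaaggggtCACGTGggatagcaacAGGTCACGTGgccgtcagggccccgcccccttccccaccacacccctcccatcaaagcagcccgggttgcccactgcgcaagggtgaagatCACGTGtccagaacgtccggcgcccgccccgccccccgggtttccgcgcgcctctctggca
Cdkn1b promoter: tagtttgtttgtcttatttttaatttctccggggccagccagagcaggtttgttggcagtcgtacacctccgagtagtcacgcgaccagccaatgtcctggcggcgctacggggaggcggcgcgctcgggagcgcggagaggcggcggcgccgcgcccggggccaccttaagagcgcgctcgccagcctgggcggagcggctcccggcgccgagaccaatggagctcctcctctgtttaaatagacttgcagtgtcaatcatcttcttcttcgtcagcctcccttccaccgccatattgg

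Cdk4, the kinase partner of the D-type cyclins, was with Wee1 the gene with an unadjusted cosine p under 0.05. Its 8am arrays gave signals of 1091, 711 and 764 (1422441_x_at), the 12pm arrays 789, 1109 and 663 and the 4pm arrays 1075, 1145 and 880. The 8pm arrays gave 970, 938 and 1145, the 12am arrays 983, 533 and 669 and the 4am arrays 334, 306 and 933. The 2 low values belonged to 4am a and 4am b, both of high Gapdh ratio, while 4am c lay among the other arrays. The highest signals, 1145 each, were in 8pm c and in 4pm b, which also had a high Gapdh ratio.

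The amplitude of Cdk4 was 0.46 ± 0.15 with a peak at 9.07 h (limma unadjusted p = 0.0209, adjusted p = 0.948). The contrast of 4pm minus 4am was 1.14 ± 0.35 (limma unadjusted p = 0.00441, adjusted p = 0.153). The test that the 3 contrasts of times 12 h apart are equal gave an unadjusted limma p of 0.0329 (adjusted p = 0.409). In that test 11.5% of all genes had an unadjusted p under 0.05. The 4am levels of 1422440_at were 34.1 and 28.0 in 4am a and 4am b against 452 in 4am c. Over the other 15 arrays 1422440_at lay between 315 and 796, and its 4pm minus 4am difference was 2.56. The third probe set, 1422439_a_at, was 304 and 383 in those 2 arrays and 751 in 4am c. All 3 Cdk4 probe sets were thus low in the same 2 arrays. Without the 3 arrays of highest Gapdh ratio the Cdk4 range of time means went from 1.14 to 0.51 (limma adjusted p from 0.108 to 0.474), the amplitude from 0.46 to 0.17 and light minus dark from 0.37 to 0.01. Without 4am c, the 4am array of low ratio, the range was 1.64 and passed (limma adjusted p = 0.00179), with 53.9% of all genes called. Most like Cdk4 were Arl2bp (r = 0.93) and Gmppa (0.90), with 0.73 and 0.71 over the 15 arrays left without the 3 of highest ratio.

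Ccnd1 encodes cyclin D1. Its 8am arrays gave 3394, 3087 and 3258 (1417420_at), the 12pm arrays 2691, 2845 and 2291 and the 4pm arrays 3073, 2687 and 2653. The 8pm arrays gave 2877, 3447 and 3829, the 12am arrays 3497, 2850 and 2678 and the 4am arrays 2179, 1845 and 2232. The 3 arrays of 4am were the lowest of all 18, and they lay below every array of 12pm, the time with the next lowest mean, by 0.32 in the mean with a pooled SD of 0.16. The 6 times did not pass the limma test (range 0.69, adjusted p = 0.0640). They passed without 4am c (0.0267, with 53.9% of all genes called), with array weights (0.0223, 69.7%) and with quantile normalization (0.0370, 15.2%). The limma adjusted p rose to 0.145 with the Gapdh ratio as a covariate and to 0.177 with median centring. Without the 3 arrays of highest Gapdh ratio the range was 0.59. The contrast of 4pm minus 4am was 0.43 ± 0.18 (limma unadjusted p = 0.0297, adjusted p = 0.214).

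A second Ccnd1 probe set, 1448698_at, was also lowest at 4am, at 1948, 1902 and 2163, with 2204 to 3624 in the other 15 arrays. The 4am c array, in which the Gapdh ratio was low, was at 2232 and 2163 in these probe sets, close to 12pm c (2291 and 2204). The third, 1417419_at, was 33.2 in 4am a and 79.9 in 4pm b and 495 to 1113 in the other arrays. Dad1 (r = 0.90) and Nt5c (0.87) were most like Ccnd1.

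Ccnd2, which encodes cyclin D2, had the flattest course of the group. Its signals (1434745_at) ran from 5360 in 12pm c to 8784 in 8am a over all 18 arrays, and the arrays of all neighbouring times overlapped. The range of the time means was 0.19, the smallest of the 9 genes, and the amplitude was 0.02 ± 0.08 (limma adjusted p = 0.954 for any difference). Of its 7 probe sets, 1416124_at passed the test for any difference when every probe set was tested (limma adjusted p = 0.0450), with signals of 366, 325 and 394 in the 8am arrays, 395, 318 and 362 in the 8pm arrays and 48.6 to 285 in the others. The lowest of these were in 4pm b (48.6) and 4am a (56.6). In the probe set 1430127_a_at, 4am a was at 287 and 4pm b at 2149, where the 15 arrays outside the 3 of highest ratio held 3625 to 6511.

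Cdkn1a encodes the Cdk inhibitor p21, a target of p53. By day the 8am arrays gave signals of 3327, 4955 and 5379 (1424638_at), the 12pm arrays 4707, 4592 and 4013 and the 4pm arrays 5518, 3408 and 3929. By night the 8pm arrays gave 5210, 4060 and 4369, the 12am arrays 4053, 3727 and 3011 and the 4am arrays 1871, 4215 and 3189. The lowest array was 4am a. With the times ordered by their means, the arrays of neighbours overlapped at every step. By the clock, every 8pm array was above every 12am array, with 4060 and 4053 as the closest signals. The amplitude was 0.24 ± 0.12 with a peak at 7.65 h (limma adjusted p = 0.948), and the range of the time means was 0.62 (limma adjusted p = 0.284). Without 4am a the amplitude was 0.14 and the range 0.34. The second probe set, 1421679_a_at, was 30.3 and 16.4 in 4am a and 4am b against 410 in 4am c and 254 to 890 in the arrays of the other 5 times. It passed the test for any difference among all probe sets (limma adjusted p = 0.0476).

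Gadd45a encodes a stress-induced protein that binds Cdk1 and p21. The 8am arrays gave signals of 559, 570 and 507, the 12pm arrays 670, 596 and 980 and the 4pm arrays 894, 1013 and 701. Its 8pm arrays gave 603, 797 and 458, the 12am arrays 359, 574 and 451 and the 4am arrays 974, 345 and 774. All 12pm arrays were above all 12am arrays, by 0.67 ± 0.32 (limma unadjusted p = 0.0537, adjusted p = 0.616). The range of the time means was 0.90 (limma adjusted p = 0.235).

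Mdm2 encodes the ubiquitin ligase that degrades p53. The arrays of 8am held signals of 577, 583 and 721 (1423605_a_at), the 12pm arrays 461, 317 and 511 and the 4pm arrays 647, 764 and 603. The arrays of 8pm held 438, 520 and 578, the 12am arrays 268, 302 and 448 and the 4am arrays 369, 350 and 645. The lowest pair of arrays belonged to 12am. Light minus dark was 0.40 ± 0.15 (limma unadjusted p = 0.0165, adjusted p = 0.749), with 8 of 9 light arrays above the dark median, and it was 0.19 without the 3 arrays of highest Gapdh ratio. Without 4am c it was 0.49 and passed (limma adjusted p = 0.0336), where 955 of 12870 genes passed, against 0 with all arrays. The range of the time means was 0.98 (limma adjusted p = 0.0655). The range was 0.93 without the 3 arrays of highest ratio. It passed without 4am c (limma adjusted p = 0.00809, with 53.9% of all genes called) and with array weights (0.00206, 69.7%). It also passed with quantile normalization (0.0232, 15.2%) and median centring (0.0137, 21%). In the probe set 1427718_a_at, 4am a was at 36.1, 4am b at 178 and 4am c at 687. Its mean was lowest at 4am (7.59) and was 8.75 at 12am (log2). Another, 1457929_at, had its lowest means at 8am and 4am (6.83 each), with 7.41 at 12am. The mean of the Mdm2 probe sets had a limma adjusted p of 0.303 for any difference, so the 12am low rests on 1423605_a_at.

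Myc encodes a transcription factor that drives growth and entry into S phase. Its 8am arrays gave signals of 409, 367 and 369, the 12pm arrays 318, 254 and 374 and the 4pm arrays 484, 905 and 175. The dark-phase arrays of 8pm gave 278, 299 and 292, the 12am arrays 136, 136 and 224 and the 4am arrays 789, 324 and 457. Every 12am array was below every array of 8am, 12pm and 8pm, and the step from 8pm to 12am was 0.79 with a pooled SD of 0.57. The 4pm arrays spread the most (SD 1.15), with 4pm b the highest of all 18 and 4pm c below all but the 12am arrays a and b. The range of the time means was 1.52, the largest of the group, with a limma adjusted p of 0.0886.

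The result for Myc depended on the arrays and settings used. Without 4pm c the limma adjusted p for any difference was 0.0165, and without the 4 arrays of Gapdh ratio above 2 it was 0.00840. Myc, Mdm2 and Gadd45a each had their lowest time mean at 12am (7.47 ± 0.38, 8.44 ± 0.37 and 8.87 ± 0.33, log2, SD, n = 3), the time at which Wee1 was highest. The Pearson r over the 18 arrays was 0.62 between Myc and Gadd45a, 0.55 between Myc and Mdm2, and -0.53 between Wee1 and Gadd45a. The highest of the group was 0.69 between Ccnd1 and Cdk4. Zwint (0.92) and Tirap (0.91) were most like Myc, Me2 (0.88) and Cflar (0.86) most like Gadd45a, and Mex3d and Slc30a1 (0.79 each) most like Mdm2.

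**Figure D2:**
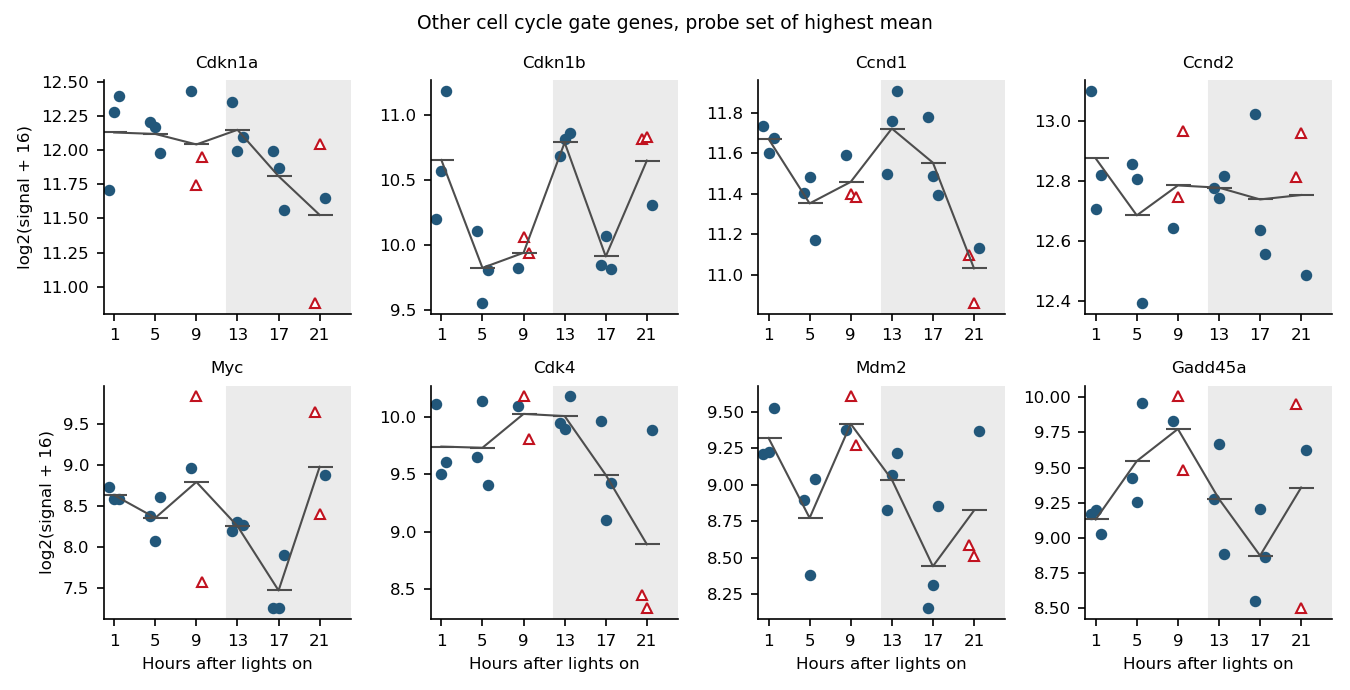
Signal of the other 8 genes as log2(signal + 16) against hours after lights on, with 1 mark per array, bars for the means of 3 arrays, grey for darkness and open triangles for the 4 arrays of Gapdh ratio above 2. Cdkn1b is high at 1, 13 and 21 h, Myc and Mdm2 are lowest at 17 h, and the low Cdk4 arrays at 21 h are triangles.

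Between light and dark, 7 of the 9 genes had a higher mean in the light and Wee1 and Cdkn1b a lower one, and none passed the limma test (0 of 9, as over all genes, 0%). At an unadjusted p under 0.05 there were 3 of 9, Wee1, Cdkn1b and Mdm2, against 6.21% of all genes. The median light minus dark difference was 0.27 in the group and 0.01 over all genes. In the group it was 0.12 without the 3 arrays of highest Gapdh ratio and 0.07 without the 4 of ratio above 2. The directions of all 9 were kept under quantile normalization and median centring, but that of Ccnd2 turned in 6 of 32 settings. The differences of Ccnd1 (0.06 ± 0.10) and Ccnd2 (0.03 ± 0.11) were smaller than their SE. The share of all genes with a higher mean in the light was not counted. Of the cell type lists, B and plasma cell genes were lower in the light in 7 of 7 (median -0.37; sums of 4223 to 15048 in the light and 5859 to 17890 in the dark) and smooth muscle genes were higher in 7 of 8 (median 0.44; 35377 to 76815 in the light and 20683 to 81977 in the dark). The part of these cells in the light to dark differences was not tested.

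At 8am against 8pm no gene of the group passed (0 of 9, limma, with 0.00777% of all genes), and none had an unadjusted p under 0.05. In Myc, 1 of 9, all 8am arrays were above all 8pm arrays, as in 5.63% of all genes, and in none of the 9 were they all below, as in 8.46%. At 12pm against 12am none passed (0% of all genes), with 2 of 9 at an unadjusted limma p under 0.05, Wee1 and Myc (0.89 ± 0.42), against 8.11% of all genes. The 12pm arrays were all above those of 12am in Myc and Gadd45a (2 of 9, 11% of all genes) and all below in Wee1 (1 of 9, 10.3%).

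At 4pm against 4am none passed (0.0466% of all genes), with 4 of 9 at an unadjusted limma p under 0.05 (Cdk4, Cdkn1b, Ccnd1 and Mdm2) against 19.7% of all genes. The 4pm arrays were all above those of 4am in Ccnd1 (1 of 9, 5.57% of all genes) and all below in Cdkn1b (1 of 9, 2.27%). The median difference in the group was -0.05 in 8am minus 8pm, 0.24 in 12pm minus 12am and 0.42 in 4pm minus 4am, against -0.03, -0.03 and 0.12 over all genes. With median centring, 4pm minus 4am was 0.22 in Ccnd1 and -0.92 in Cdkn1b, and the median of all genes moved to -0.09. The 3 contrasts did not differ from each other beyond the threshold in any gene of the group (0 of 9, limma, 0.0777% of all genes). At an unadjusted p under 0.05 there was 1 of 9, Cdk4, near the 11.5% of all genes. Weighting arrays by their own spread, an alternative setting in limma, gave 1, 3, 1, 3 and 3 calls of 9 for the 24 h curve, light against dark, 12pm against 12am, 4pm against 4am and the unequal contrasts, with 69.7% of all genes then called for any difference. Wee1 was among the genes called in each of these. Over all genes, 29 of 12870 were then called for the 24 h curve and 1942 for light against dark. The calls over all genes in the other contrasts were not counted.

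**Figure D3:**
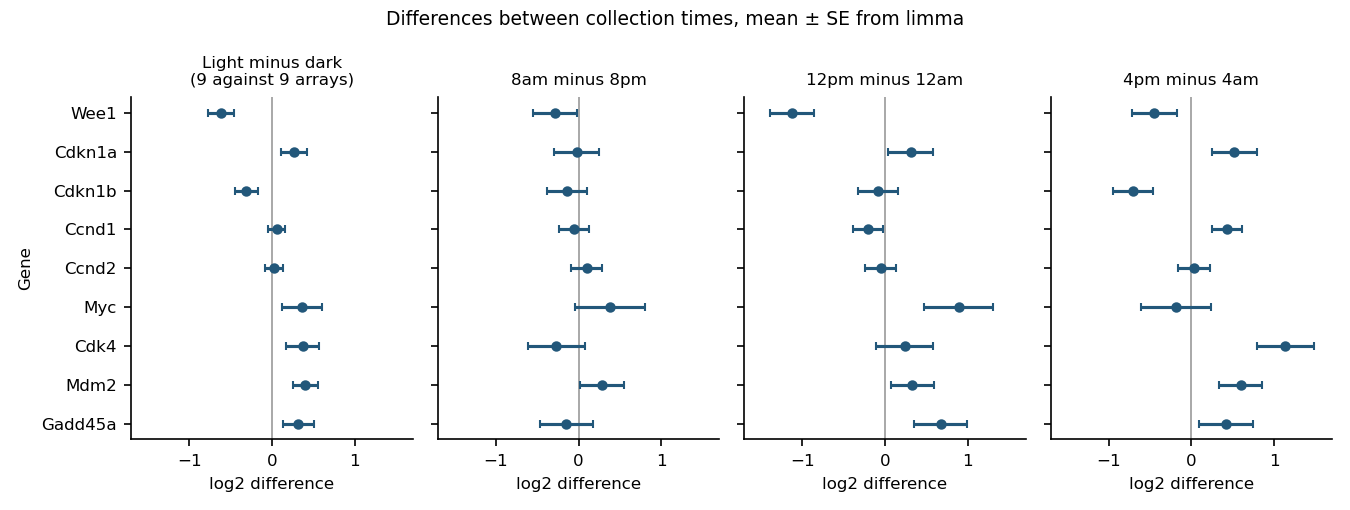
Differences on the log2 scale with their SE from limma for the 9 genes (rows), as light minus dark and as 3 contrasts of times 12 h apart. Wee1 lies farthest left in 12pm minus 12am (-1.13) and Cdk4 farthest right in 4pm minus 4am (1.14).

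Tested one by one, 4 of the 24 probe sets differed between the times (16.7%, limma, with 12.9% of all 27022 probe sets), namely Cdkn1b 1434045_at, Ccnd2 1416124_at, Cdk4 1422440_at and Cdkn1a 1421679_a_at. None of the 24 passed the cosine test (0.0111% of all probe sets), and Wee1 1416773_at had an adjusted p of 0.0519 for any difference there. The 3 arrays with the highest Gapdh ratio (4pm b, 4am a and 4am b) were set against the other 3 arrays of the same times, of which 4pm c had a ratio of 2.33. Probe sets of the group were lower in the 3 arrays in 20 of 24, against 59.0% of the 22387 tested probe sets with 1 symbol. They were lower by over 2 on the log2 scale in 5 of 24, against 4.44%, and none of these 5 stood for its gene. These were Cdkn1a 1421679_a_at (-2.41), Cdk4 1422440_at (-2.25), Ccnd1 1417419_at (-2.14), Mdm2 1427718_a_at (-2.07) and Ccnd2 1430127_a_at (-2.005). By contrast Myc (0.83), Cdkn1b 1434045_at (0.55) and Wee1 1416773_at (0.52) were higher in the 3 arrays. The part of RNA quality in these differences was not tested.

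**Figure D4:**
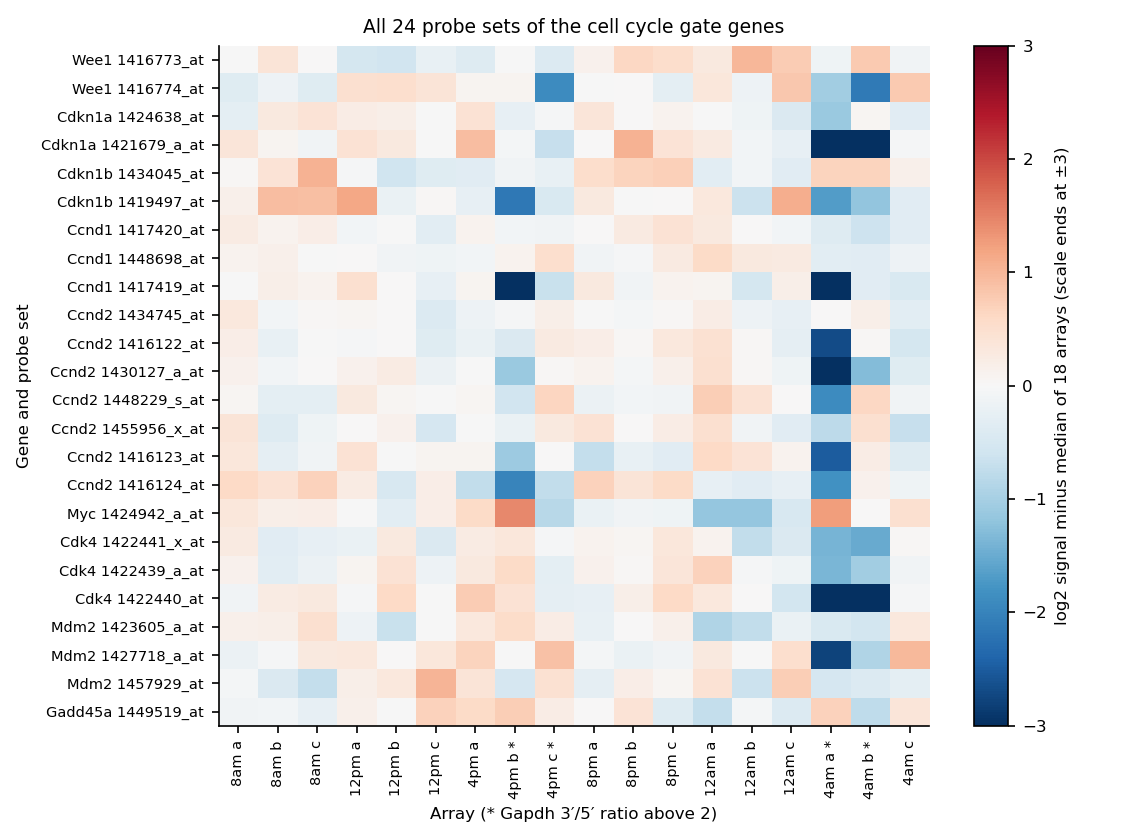
All 24 probe sets (rows) in the 18 arrays (columns, in order of time), coloured by log2 signal minus the row's median, with an asterisk for the 4 arrays of Gapdh ratio above 2. The darkest blue cells, 3 or more below the median, lie in 4pm b, 4am a and 4am b.

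The pathway around these genes was followed in lists of its other genes, read against the 17% of all genes that differed between the times. Of 21 tested genes of the G1 to S gate, 2 differed between the times (9.52%), the pocket proteins Rb1 and Rbl1, which hold E2F factors (limma adjusted p = 0.0234 and 0.0254). Rb1 had its highest mean at 4am (11.49 ± 0.45) and its lowest at 12pm (10.55 ± 0.11). Of 13 tested genes of the G2 to M gate, 5 differed (38.5%), 4 with a higher mean in the light. Plk1, the kinase that opens mitosis and marks Wee1 for destruction, was highest at 8am (9.59 ± 0.66) and lowest at 4am (6.75 ± 0.31; limma adjusted p = 0.00590). Cyclin A2 (Ccna2) was also highest at 8am (10.62 ± 0.63) and was lowest at 8pm (9.30 ± 0.04; limma adjusted p = 0.0471). The Cdk1 partner Cks2 was highest at 8am as well (11.96 ± 0.28) and lowest at 12am (10.54 ± 0.12; limma adjusted p = 0.0106). Cks1b (limma adjusted p = 0.04998) and Bora, an activator of Plk1 (0.0254), were the others called. Without the 3 arrays of highest Gapdh ratio Plk1, Cks2, Bora and Ccna2 were still called and Cks1b was not, with 22.8% of all genes called.

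Among p53 targets and regulators, 4 of 20 differed (20%): Plk3, Ei24, Trp53inp1 and Sesn1. Plk3 had the largest range, 4.21, with the highest mean at 8pm (9.46 ± 0.41) and the lowest at 4am (5.24 ± 0.16; limma adjusted p = 0.00555). Of the Myc and Max network 2 of 12 differed (16.7%), Mga and Mxd1, both of which encode partners of Max. Mxd1 was lowest at 4am (11.92 ± 0.56), with 12.56 to 12.79 at the other times (limma adjusted p = 0.0479). It was not called without the 3 arrays of highest Gapdh ratio, nor was Sesn1, while Mga, Plk3, Ei24 and Trp53inp1 were. None of these 4 lists held a gene that passed the cosine test (limma, 0.0389% of all genes). At an unadjusted p under 0.05 in that test there were 1 of 21, 6 of 13, 1 of 20 and 1 of 12, against 3.95% of all genes. In the core clock list, by comparison, 4 of 16 genes passed the cosine test (Dbp, Tef, Nr1d2 and Cry1) and 14 of 16 differed between the times.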

How the data were processed

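Distal colon RNA was hybridised to 18 Affymetrix arrays, 3 at each of 6 times. The table holds a linear probe set intensity, deposited by the authors and made with GCOS, the Affymetrix array software, per the submitters' processing notes (version not given in the sources used here). Its direction and linear scale follow from the values, its probe level method is not given in the sources used here, and it has no detection calls, so the depth of a value is unknown. From the values, each array had a trimmed mean of 500 (2% left out at each end), and array medians lay between 127 and 252.

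Of 45101 probe sets, 64 controls were used for quality only, and 34945 of the others had 1 symbol in the platform annotation used here, 932 several and 9160 none. Values were taken as log2(signal + 16) with the deposited scaling, so a log2 difference understates the change of low signals. Probe sets with a mean at or above the 40th percentile (7.10) were kept (27022), and the one with the highest mean stood for each of 12870 genes. All fits ran over all of these genes and 18 arrays in limma 3.58.1 (R 4.3.3), with empirical Bayes moderation and a trend on the mean. One fit was a 24 h cosine curve (15 residual degrees of freedom), and the other had 6 group means (12 residual degrees of freedom). The second gave the test of any difference, light minus dark, 3 contrasts of times 12 h apart and the test that these are unequal. Tests were two-sided, with Benjamini-Hochberg adjustment over all genes and a threshold of 0.05. The fits were tested on simulated data. An amplitude is the height of the curve above its mean. Hours after lights on are the clock hour minus 7.

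The genes and lists were chosen with earlier results of these data known, and some lists were built after those results, so no list's direction is independent evidence. Named are all genes of the group, the 5 genes most like Wee1 and the 2 most like each other gene by Pearson r, and up to 4 genes per pathway list by p. Cks1b and the marker genes below the filter were named after their values were seen. Alternatives changed the constant (1 or 64), the normalization (quantile, median centring), the filter (none, 60th percentile), the probe set rule, the trend, array weights and a replicate block. Others added a 12 h harmonic or the Gapdh ratio as a covariate, or left out each array or the arrays of high Gapdh ratio. RefSeq promoter windows are those of build GRCm38.p6.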

Additional observations from a re-analysis of the deposited data

Results flagged for a closer look

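In 1 Ccnd1 probe set, 1448698_at, 2 of the 3 contrasts of times 12 h apart ran in opposite directions without overlap. Every 12pm array was below every 12am array (difference -0.46 on the log2 scale), and every 4pm array was above every 4am array (difference 0.45). The difference between these 2 contrasts was not tested by itself. It was chosen because all arrays of a time moved 1 way, and the test that all 3 contrasts are equal gave a limma adjusted p of 0.515 for this probe set. In the Ccnd1 probe set used for the gene, 1417420_at, the same contrasts were -0.20, with overlapping arrays, and 0.43, without overlap.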

How the results depend on the processing

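The number of genes of the group that differed between the 6 times was 2 of 9, with 17% of all genes called. It became 5 with quantile normalization (15.2% of all genes), 1 with the mean of a gene's kept probe sets (13.9%) and 7 with array weights (69.7%). With median centring 21% of all genes were called. The count of the group became 1 with each probe set tested (12.9% of all probe sets called), where a gene was still counted by its probe set of highest mean alone. It became 3 with median centring (Cdkn1b, Myc and Mdm2), 3 without the 3 arrays of highest Gapdh ratio (Wee1, Cdkn1b and Mdm2) and 3 without the 4 of ratio above 2 (Wee1, Cdkn1b and Myc), and 1 to 5 when single arrays were left out (5 without 4am c, when 53.9% of all genes were called). Array weights gave 1 gene for the 24 h curve, 3 for light minus dark, 1 for 12pm minus 12am, 3 for 4pm minus 4am and 3 for unequal contrasts. Over all 12870 genes, 29 were then called for the 24 h curve and 1942 for light minus dark. Leaving out single arrays gave 0 to 3 for light minus dark, 0 to 3 for 4pm minus 4am and 0 to 1 for unequal contrasts, above 0 without 4am c alone. Without 4am c, 955 of 12870 genes were called for light minus dark. The calls over all genes in the other contrasts were not counted in these settings. Without the 3 arrays of highest Gapdh ratio 12pm minus 12am gave 1 gene, and 1 without the 4 of ratio above 2, in both cases Wee1. For 8am minus 8pm the count was 0 in all 32 settings. The Wee1 amplitude was 0.23 to 0.59 over 33 settings, with a peak at 16.4 to 17.99 h, and passed with array weights alone (0.59, limma adjusted p = 0.0267). Light minus dark of Wee1 was -0.82 with array weights (limma adjusted p = 0.00133) and -0.69 to -0.52 with single arrays left out, where it passed without 4am c (-0.67, limma adjusted p = 0.0132). The Wee1 call for any difference was lost in 16 of 32 settings, among them median centring (limma adjusted p = 0.0537). The Cdkn1b call was lost in 1 of 32, the mean of kept probe sets. Ccnd2 light minus dark changed sign, at -0.0050 with array weights and -0.019 to 0.074 with single arrays left out. Median centring moved the median of all genes from -0.03 to 0.13 in 12pm minus 12am and from 0.12 to -0.09 in 4pm minus 4am. It turned the sign of 2 genes of the group in 8am minus 8pm (Cdkn1a and Ccnd1), of 2 in 12pm minus 12am (Cdkn1b and Ccnd2) and of 1 in 4pm minus 4am (Ccnd2), none of them called, while Wee1 stayed at -0.97 in 12pm minus 12am. Array letters did not pair the arrays: over 45 pairs of the same letter the deviations from the time means had a mean r of -0.01, and 6 were over 0.1. A replicate block left 2 genes differing between the times, Wee1 and Cdkn1b, and gave limma adjusted p of 0.694 for the Wee1 amplitude. The cause of changes under normalization, weights or the probe set rule was not tested. With 3 arrays a time and no detection calls, low signals such as those near 30 have no known distance from background.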
